A study of Mus musculus with 2 samples.

Results

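Genes for acute-phase and secreted antimicrobial proteins were examined in RNA from macrophage nuclei. The 8 genes, Saa3, Lcn2, Slpi, Hp, Camp, Lyz1, Lyz2 and Ltf, were chosen by symbol, and all 8 were found among the 55536 annotated genes, 22028 of which code for protein. The RNA came from primary bone marrow-derived macrophages of C57BL/6J mice. A first exposure to Lipid A at 100 ng/ml lasted 12 hours, a period of 12 hours without it followed, and the same concentration was then given again for 60 min. Lipid A, the lipid anchor of endotoxin, is recognised by TLR4. Ribosomal RNA was removed from the total RNA before sequencing. The labels call the preparation nuclear in some fields and nucleoplasmic in another. The series holds 1 group of 2 libraries, made from 1 µg of RNA for replicate 1 and 500 ng for replicate 2. Both carry the same donor identifier. Separate animals or cultures are not stated, and the spread between the libraries may therefore be technical. Sex and age were not collected. Cells without Lipid A, or exposed a single time, were not analysed here, so the values are levels after both exposures and no value measures a response to Lipid A.

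The acute-phase response is the change in plasma proteins that follows infection or injury, driven by cytokines such as IL-6 and IL-1. Most acute-phase proteins come from the liver, but serum amyloid A3 in mice is made largely outside it, macrophages included. Antimicrobial proteins of phagocytes act by several means. Lysozymes cut the bacterial cell wall, lipocalin 2 and lactoferrin keep iron from bacteria, and cathelicidin disrupts bacterial membranes. Lactoferrin, cathelicidin and lipocalin 2 are classical contents of neutrophil secondary granules.

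The libraries held 23630328 expected counts on annotated genes in replicate 1 and 15687634 in replicate 2. Markers of the labelled cell type were present: all 10 macrophage markers reached 1 TPM in both libraries, and together they made up 2441 and 1320 TPM. TPM is the share of each gene's transcripts after correction for length, on a scale with the same total in every library. None of 11 neutrophil, 6 lymphocyte, 5 erythroid or 4 hepatocyte markers reached 1 TPM in both libraries. The neutrophil markers summed to 3.04 and 1.63 TPM, with Elane, Ctsg and Retnlg at 0 counts in both, and all 4 hepatocyte markers had 0 counts in both.

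The 8 genes ranged from a mean of 0.075 TPM to 1812 TPM, and nearly all of their RNA came from Lyz2 and Saa3. Those genes held 99.7% of the members' expected counts in each library, while the other 6 genes together held 238 counts in replicate 1 and 118 in replicate 2. Of the 8, 3 reached 1 TPM in both libraries (Lyz2, Saa3 and Lcn2), a share near the 39.9% of all protein-coding genes that did so. Lyz2 and Saa3 also reached 100 TPM in both, as did 1.43% of protein-coding genes. When TPM was rescaled to the nuclear protein-coding genes alone, 6 of the 8 reached 1 TPM, against a background of 48.7%. By the deposited posterior mean 4 did so, Ltf being added. A low level in such RNA may mean fewer cells that make it or less RNA per cell, and these cannot be told apart. With 1 group there is no test of a condition, and the levels are given as descriptions.

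**Figure D1:**
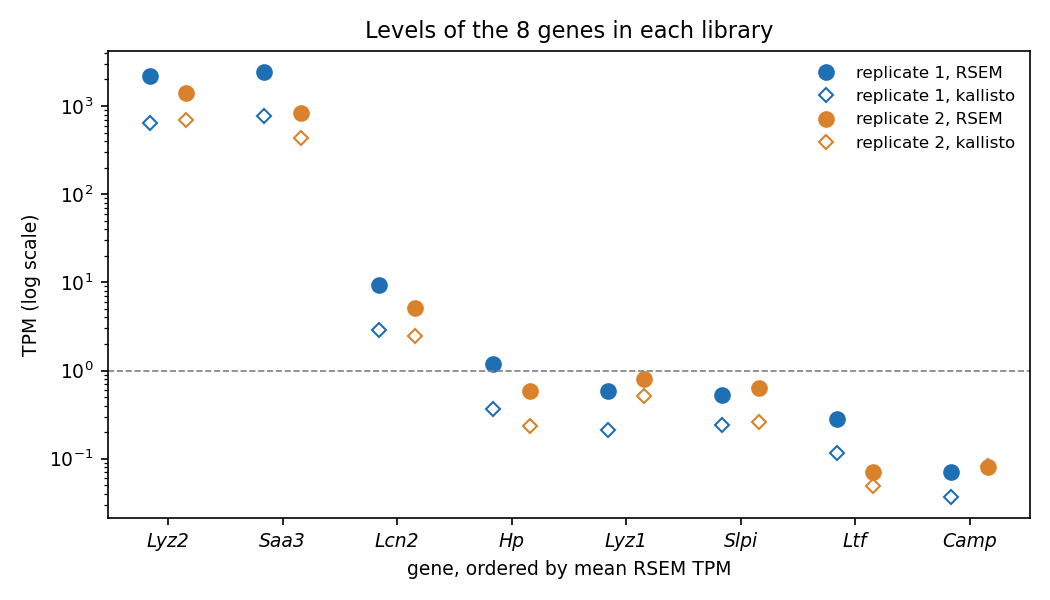
TPM of the 8 genes on a log axis in each library, as filled circles for the first quantifier (RSEM) and open diamonds for the second (kallisto), with a dashed line at 1 TPM. Lyz2 and Saa3 lie between 437 and 2434 TPM in every library and quantifier, Lcn2 lies between 2.45 and 9.33 TPM, and the other 5 genes lie at or below 1.18 TPM.

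Saa3, the serum amyloid A gene of macrophages and fat tissue (ENSMUSG00000040026.8, mm10 chromosome 7, 46711998 to 46715700, minus strand), was at 2434 TPM in replicate 1 and at 838 TPM in replicate 2, a mean of 1636 ± 1128 TPM (SD, n = 2). These levels rested on 26503 and 8627 expected counts. Replicate 1 was the higher library, and the deposited intervals, 2300 to 2361 TPM and 782 to 820 TPM, did not overlap. They are drawn around a posterior mean (2330 and 802 TPM), and the TPM itself lies above both. Among protein-coding genes Saa3 stood at place 10 in replicate 1 and at place 24 in replicate 2. The second quantifier gave 764 and 437 TPM, with places 12 and 31.

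The other serum amyloid A genes were at or near 0. Saa4, the nearest protein-coding gene above Saa3 (12297 bases away), and Saa2 had 0 counts in both libraries, and Saa1 had 2 counts in replicate 1 and 0 in replicate 2. The 3 counts that a count of 0 allows would correspond to 0.0604 and 0.0677 TPM for Saa4, but the second quantifier put Saa4 at 0.173 and 1.24 TPM, so its level depended on the quantifier. Saa3 was far above it in either. The first-numbered transcripts of Saa1 and Saa3 were 70.0% identical over their aligned part and 4.84% of the 31-base words of Saa1 occurred in Saa3. Below Saa3, Saal1, named for its similarity to serum amyloid A, had 1.54 and 0.78 TPM. The high level was thus seen at Saa3 and at neither neighbour.

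The bases before the start of Saa3 are shown because it was the acute-phase gene with the highest level. The sequence is from RefSeq, GRCm38.p6, chr7:46715701-46715926, minus strand, and ends where the first annotated exon begins. Capitals mark matches to the C/EBP motif TTNCNNAA on either strand; C/EBP factors are known regulators of acute-phase genes.
Saa3: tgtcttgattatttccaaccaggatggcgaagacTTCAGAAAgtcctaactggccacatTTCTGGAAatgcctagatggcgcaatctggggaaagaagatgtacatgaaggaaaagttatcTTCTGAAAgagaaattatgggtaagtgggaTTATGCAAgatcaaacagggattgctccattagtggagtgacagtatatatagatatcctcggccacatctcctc
These 4 matches begin at positions -216, -191, -129 and -99 from the RefSeq start. At least 1 match was found in 36.8% of 32851 promoter windows of 250 bases, and 4 or more in 0.801%, with matches on both strands counted. The NF-kB motif, which 7.25% of windows hold, had no match in the Saa3 window, nor had AP-1 (TGANTCA, 6.75%), STAT (TTCNNNGAA, 7.02%) or PU.1 (GAGGAA, 23.3%). The C/EBP count was singled out after it was seen. Across the 7 members with a window, Slpi had 3 C/EBP matches, Ltf 2, Lcn2, Lyz1 and Lyz2 1 each, and Camp 0. The Slpi window (chr2:164356508-164356757, minus strand) touches no annotated Slpi exon. It lies within the annotated gene, which runs to 164389095, so its matches are not upstream of that gene as annotated. By the annotation used here the outermost base scanned for Lcn2 already lies in an exon of that gene. All 250 bases of its window are therefore not upstream of the annotated gene. From the first exon base on, the Camp window holds 161 bases, that of Lyz2 49, that of Saa3 24 and that of Ltf 21. Whether each of those bases is exonic was not checked. The counts for Lcn2 and Camp therefore describe mostly or wholly letters within the annotated gene. A match describes letters in a window and shows no binding.

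The counts of Saa3 were divided between a spliced and an intron-containing transcript. Saa3-201, the transcript with 4 exons, took 80.6% of the gene's expected counts in replicate 1, and 72.0% of them in replicate 2. Saa3-202, annotated as protein-coding with 2 exons, took 19.4% and 27.6%. Its last exon covers 2051 of the 2282 bases of intron 2 of Saa3-201 (chr7:46712728-46715009), so reads from unspliced RNA in that intron match it. Because it is 2200 bases long against 555 for Saa3-201, its share of TPM was smaller, 4.03% and 6.07%. In both measures its share was higher in replicate 2. The second quantifier put 4.16% and 6.77% of Saa3 TPM on it.

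**Figure D2:**
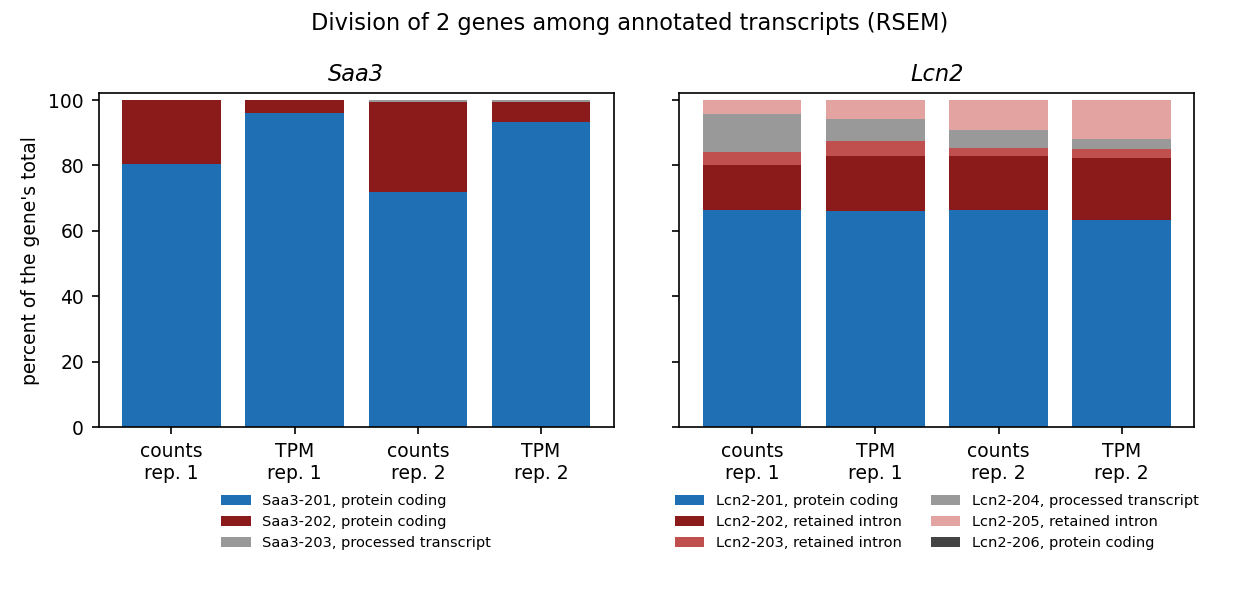
Percent of each gene's expected counts and TPM on each annotated transcript, for Saa3 and Lcn2 in both libraries (stacked bars, RSEM). The intron-containing Saa3-202 holds 19.4% and 27.6% of Saa3 counts but 4.03% and 6.07% of its TPM, and Lcn2-201 holds between 63.3% and 66.4% of Lcn2 in every bar.

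Hp encodes haptoglobin, the plasma protein that binds free haemoglobin (ENSMUSG00000031722.10, chromosome 8, 109575128 to 109579172, minus strand). Its level was 1.18 TPM in replicate 1 and 0.58 in replicate 2 (mean 0.880 ± 0.424 TPM; SD, n = 2), from 29 and 9 counts. Replicate 1 was above 1 TPM and replicate 2 below it, and the deposited intervals (0.817 to 1.86 and 0.314 to 1.15 TPM) overlapped. The spliced coding transcript Hp-201 took 75.7% of the counts in replicate 1 and 23.9% in replicate 2, the rest going to the non-coding Hp-203, but these shares divide very few counts. The neighbours Txnl4b (1.94 and 1.44 TPM) and Dhodh (2.21 and 1.49 TPM) were at similar low levels.

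Lcn2 encodes lipocalin 2, which binds the siderophores that bacteria use to take up iron (ENSMUSG00000026822.14, chromosome 2, 32384633 to 32388252, minus strand). The level was 9.33 TPM in replicate 1 and 5.10 in replicate 2, from 173 and 80 counts. The deposited intervals, 7.88 to 10.7 TPM and 4.16 to 6.40 TPM, did not overlap, and replicate 1 was again the higher library. When TPM was rescaled to the nuclear protein-coding genes the libraries lay closer, at 33.2 and 27.1 TPM. The log2 ratio, replicate 2 over replicate 1, was -0.87 in TPM as deposited and -0.29 in rescaled TPM. Saa3 stood 261-fold above Lcn2 in replicate 1 (exact 95% interval 225 to 305) and 164-fold above it in replicate 2 (132 to 207). These intervals cover counting error only.

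Transcripts annotated as retained introns held 27.0% of Lcn2 TPM in replicate 1 and 33.5% in replicate 2. The median over 5643 protein-coding genes of 1 TPM or more with such a transcript was 20.2% and 23.1%, and Lcn2 lay above 62.3% and 66.0% of them. By counts the share was 22.1% and 28.1%, against medians of 10.6% and 12.7%, and Lcn2 lay above 69.4% and 71.5% of the genes. By TPM of the second quantifier the share was 28.7% and 34.5%, against medians of 26.4% and 29.5%. There Lcn2 lay above 54.3% and 57.6% of the genes. Lcn2 was therefore above the median in each measure, but by less with the second quantifier, and many genes had a higher share. The flanking genes 1110008P14Rik (2.18 and 2.02 TPM) and Ptges2, a prostaglandin E synthase gene (0.96 and 0.83 TPM), stood below it.

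Ltf encodes lactoferrin, an iron-binding protein of milk and neutrophil granules (ENSMUSG00000032496.7, chromosome 9, 111019271 to 111042767, plus strand). The deposited TPM was 0.28 in replicate 1 and 0.07 in replicate 2, from 12 and 4 counts. The posterior mean TPM deposited beside it was 2.89 and 3.18, with an interval of 1.14 to 4.98 in replicate 1 that lies wholly above the TPM, so the level of Ltf depended on which of these values is read. The annotation gives Ltf 12 transcripts, 9 of which received 0 counts in replicate 1 and 11 in replicate 2. Its neighbour Ccrl2, a chemokine-binding receptor gene on the minus strand, lies 11718 bases beyond the end of Ltf. Ccrl2 had 170 and 87.8 TPM, and Rtp3 on the other side of Ltf had 0 counts in both libraries. Camp encodes cathelicidin (ENSMUSG00000038357.10, chromosome 9, 109847379 to 109849617, minus strand). It had 1 count in each library, 0.07 and 0.08 TPM, with deposited intervals that reached 0.315 and 0.359 TPM. Its neighbours were Nme6 (2.03 and 0.93 TPM) and Cdc25a (1.43 and 1.10 TPM).

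Slpi encodes secretory leukocyte peptidase inhibitor, an inhibitor of neutrophil elastase with antimicrobial activity (ENSMUSG00000017002.14, chromosome 2, 164354070 to 164389095, minus strand). Values of 0.53 TPM (replicate 1) and 0.63 TPM (replicate 2) rested on 7 and 4 counts. The libraries overlapped in their deposited intervals. The flanking genes Svs5 and Matn4 were at or near 0 as well (0 and 0 TPM, and 0.01 and 0.05 TPM). At this depth a change in Slpi, Camp or Ltf of several fold between the libraries was not detectable.

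Lyz2, the lysozyme gene of macrophages (ENSMUSG00000069516.8, chromosome 10, 117277331 to 117282321, minus strand), stood at 2211 TPM in replicate 1 and at 1413 TPM in replicate 2, a mean of 1812 ± 564 TPM (SD, n = 2). It rested on 64489 and 36639 expected counts, or 2729 CPM, counts scaled to a common total, in replicate 1 (95% Wilson interval 2708 to 2750) and 2336 CPM in replicate 2 (2312 to 2360). It stood at place 14 and at place 12 among protein-coding genes. The second quantifier gave 635 and 701 TPM, so the higher library by TPM depended on the quantifier.

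Lyz1, the lysozyme gene of Paneth cells in the gut (ENSMUSG00000069515.6, chromosome 10, 117287797 to 117292868, minus strand), lies 5475 bases from Lyz2 on the same strand. Values of 0.58 TPM (replicate 1) and 0.81 TPM (replicate 2) came from 16.0 and 20 counts. Lyz2 was 3838-fold above Lyz1 in replicate 1 (exact 95% interval 2363 to 6715) and 1743-fold above it in replicate 2 (1129 to 2855). The second quantifier gave 2981-fold and 1378-fold. Lyz1 received 0.0248% and 0.0546% of the counts of the pair. How many of these came from Lyz2 RNA was not tested.

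The pair is shown in sequence because the contrast depends on telling its reads apart. The transcripts were 95.8% identical, with 51 mismatches and 2 gaps over 1264 aligned positions, and the longest identical run was 118 bases. Of the 31-base words of Lyz1, 34.2% also occurred in Lyz2. The coding sequences, of 444 bases without the stop codon, differed at 22 bases, 14 of them within the first 150. That stretch is given for both genes from the GENCODE M21 transcripts, with capitals at the differing bases. For Lyz1 it lies at chr10:117292703-117292838 and chr10:117291180-117291193, and for Lyz2 at chr10:117282107-117282242 and chr10:117280792-117280805, within the first and second exons.
Lyz1 coding: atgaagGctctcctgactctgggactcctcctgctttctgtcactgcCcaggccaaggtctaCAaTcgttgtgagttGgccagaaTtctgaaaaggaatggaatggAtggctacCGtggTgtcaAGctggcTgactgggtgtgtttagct
Lyz2 coding: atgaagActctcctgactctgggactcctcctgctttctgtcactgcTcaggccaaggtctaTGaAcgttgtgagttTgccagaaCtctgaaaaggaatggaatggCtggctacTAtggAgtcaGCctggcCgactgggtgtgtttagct
A read that covers a capital can be told apart by it, while a read that lies within the 118 identical bases could come from either gene.

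The promoters of the pair were less alike than the transcripts, 80.0% identical over the 250 bases before the start, with 40 mismatches and 11 gap positions. The first 201 of these bases (RefSeq, GRCm38.p6, minus strand) are given, chr10:117292918-117293118 for Lyz1 and chr10:117282322-117282522 for Lyz2. Capitals mark the 46 bases in each that differ from the other gene or have no partner in it.
Lyz1 promoter: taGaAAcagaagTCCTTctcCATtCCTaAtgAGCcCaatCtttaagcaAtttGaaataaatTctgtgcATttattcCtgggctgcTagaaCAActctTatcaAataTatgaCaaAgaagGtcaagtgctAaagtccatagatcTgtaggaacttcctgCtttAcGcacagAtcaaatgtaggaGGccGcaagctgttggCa
Lyz2 promoter: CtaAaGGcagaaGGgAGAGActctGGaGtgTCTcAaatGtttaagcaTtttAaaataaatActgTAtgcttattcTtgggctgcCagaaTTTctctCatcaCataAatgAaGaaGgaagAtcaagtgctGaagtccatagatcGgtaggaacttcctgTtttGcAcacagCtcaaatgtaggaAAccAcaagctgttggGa
Each window held 1 match to the C/EBP motif, at position -209 in Lyz1 and at position -55 in Lyz2. The Lyz2 match begins within the bases printed and ends past them, at -48. Neither window held a match to NF-kB, AP-1, STAT or PU.1 in the letters searched. Which of the differences between the promoters bears on the levels was not tested. The other lysozyme-family genes were at or near 0: Lyzl1, Lyzl6 and Spaca3 had 0 counts in both libraries, as did Lalba, and Lyzl4 had 0.20 and 0.11 TPM. On the far side of Lyz2, 9530003J23Rik had 0 counts in both libraries. On that of Lyz1, the cleavage factor gene Cpsf6 had 25.2 and 18.2 TPM.

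In order of mean TPM the genes were Lyz2, Saa3, Lcn2, Hp, Lyz1, Slpi, Ltf and Camp. Of the 7 steps in this order, those from Saa3 to Lcn2 and from Lcn2 to Hp were separate, with the same direction and intervals that did not overlap in both libraries. Lyz2 and Saa3 changed places, Saa3 being higher in replicate 1 and Lyz2 in replicate 2. By TPM no neighbours among the 5 lowest genes were separate. The place of Ltf depended on the value read: its posterior mean (2.89 and 3.18 TPM) lies above that of Hp (1.32 and 0.70 TPM), and its deposited intervals did not overlap those of Camp in either library.

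**Figure D3:**
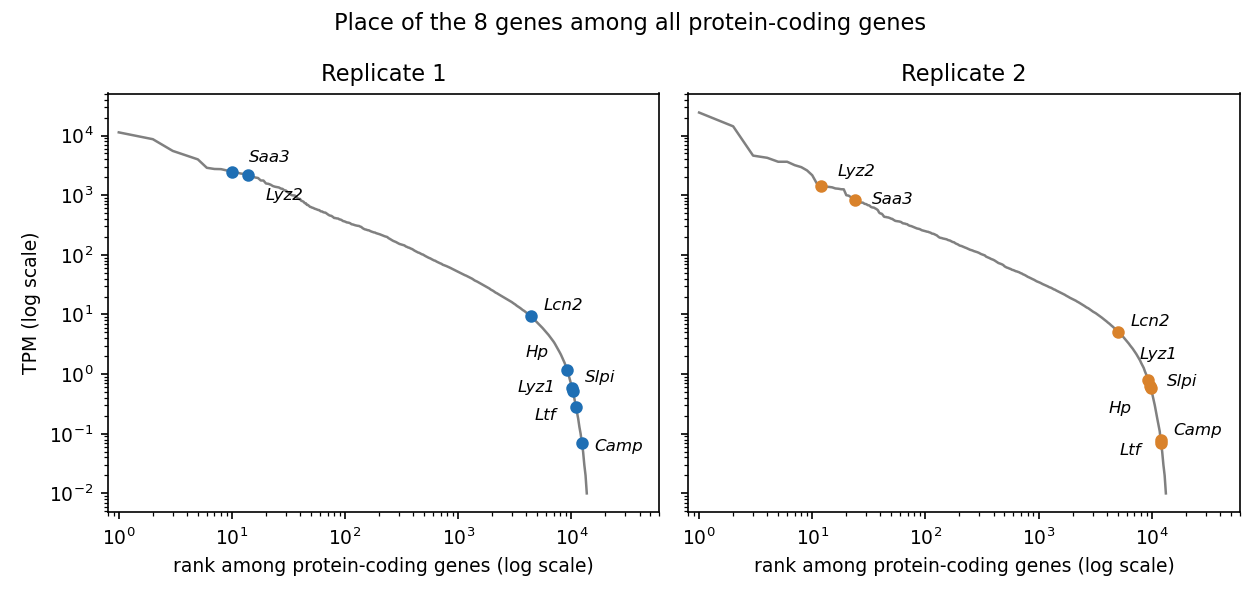
TPM of protein-coding genes against their rank (grey line, both axes log scale), with the 8 genes marked, for replicate 1 and replicate 2. Saa3 and Lyz2 lie between places 10 and 24, Lcn2 at places 4360 and 5083, and the other 5 genes at place 9144 or below.

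The replicates were compared on counts normalised by TMM, which scales each library by a single factor and assumes that most genes do not differ. A total of 5 members had a mean of 10 or more counts and were compared, Saa3, Lcn2, Hp, Lyz1 and Lyz2. Saa3 had 21917 normalised counts in replicate 1 and 10910 in replicate 2, a log2 ratio, replicate 2 over replicate 1, of -1.01 (exact 95% interval -1.04 to -0.97, counting error only). Its ratio was lower than that of all but 4.22% of the 14052 genes compared, and of all but 1.69% of the 2779 genes whose mean reached 1000 counts. Hp had a ratio of -1.04, with an interval of -2.34 to 0.04 from its few counts. Lcn2 had -0.50 (-0.90 to -0.11), Lyz2 -0.20 (-0.22 to -0.18) and Lyz1 0.91 (-0.09 to 1.98).

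Of the 5, 2 were over 2-fold apart (Saa3 and Hp, both lower in replicate 2), beside 8.6% of all genes compared in either direction and 4.29% in that direction. Saa3 lay at the 2-fold limit, with its interval on both sides, so this count should not be read as more than that. With TPM as deposited its log2 ratio was -1.54, with the rescaled TPM -0.96 and with counts of the second quantifier -1.12, so it was lower in replicate 2 under each scaling. Over nuclear protein-coding genes the median log2 ratio was -0.47 in TPM as deposited, 0.11 in rescaled TPM and -0.02 after TMM. Under the rescaled TPM the Lyz2 ratio was -0.06, and Lyz1 passed 2-fold at 1.06 in place of Saa3 and Hp. The ratios of the 10 macrophage markers ran from -1.19 to 0.22 with a median of -0.39, and 9 were below 0. The amount of starting RNA also differed between the libraries. The part of either in the ratio of Saa3 was not tested, and the ratios compare 2 libraries, not conditions.

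**Figure D4:**
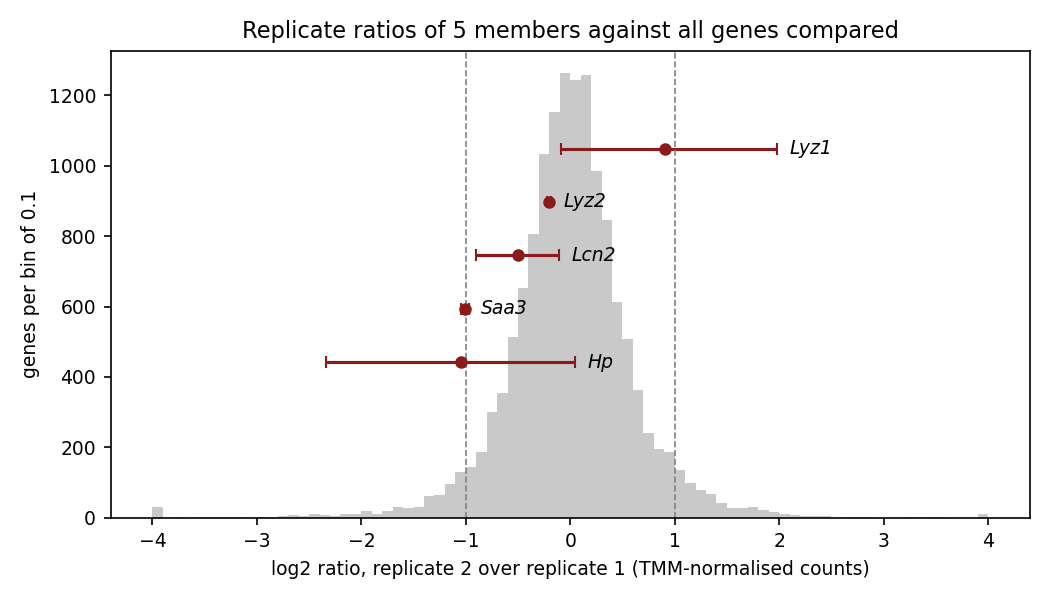
Histogram of the log2 ratio, replicate 2 over replicate 1, of TMM-normalised counts for the 14052 genes compared (bins of 0.1, ratios beyond the axis in the end bins), with 5 members as points at heights chosen for legibility and exact 95% counting intervals as bars. Saa3 and Hp lie at the dashed 2-fold line on the left, Lyz2 and Lcn2 lie between the lines and Lyz1 has an interval that crosses 0.

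Related genes put the members in context, and the share of all protein-coding genes that reached 1 TPM in both libraries was 39.9%. Of 18 other acute-phase genes 1 reached 1 TPM in both libraries, Cp, which encodes the copper-carrying ferroxidase ceruloplasmin, at 84.2 and 39.2 TPM. Next were Lbp, which encodes the protein that hands endotoxin to CD14 (1.19 and 0.47 TPM), and the orosomucoid genes Orm2 (1.07 and 0.35 TPM) and Orm3 (0.94 and 0.23 TPM). The second quantifier put Orm2 at 22.5 and 20.4 TPM and Orm3 at 16.3 and 16.4 TPM, so that 3 of the 18 reached 1 TPM in both libraries there. Their levels are uncertain here, and the cause of the disagreement was not tested. By the first quantifier the list had a median of 0 TPM in both libraries, against 0.28 and 0.21 TPM over all protein-coding genes, and 9 of its genes had 0 counts in both, among them Apcs, Crp and Fga. By the second quantifier Crp was at 0.262 and 1.01 TPM, and Apcs and Fga were at 0.

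Of 15 neutrophil granule genes 0 reached 1 TPM in both libraries, with a median of 0.06 and 0.04 TPM. The highest were the collagenase gene Mmp8 (0.94 and 0.98 TPM), the calprotectin genes S100a9 (1.12 and 0.14 TPM) and S100a8 (0.55 and 0.32 TPM), and Ngp (0.30 and 0.13 TPM). Bpi, Ctsg and Elane had 0 counts in both libraries. The TPM of Ltf and of Camp lay within the range of this list, while Lcn2 stood above each of its genes in both libraries.

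Of 17 protease inhibitor genes 4 reached 1 TPM in both libraries, beside 39.9% of all protein-coding genes. The 17 include 10 Wfdc genes, whose proteins share the WFDC domain of SLPI. Wfdc17 had 74.3 and 53.7 TPM, the cystatin genes Cstb 71.6 and 39.6 TPM and Cst3 76.8 and 31.6 TPM, and Serpinb2 2.21 and 2.56 TPM. A total of 10 had 0 counts in both libraries, among them Stfa1, Stfa2 and Stfa3. By the second quantifier 5 of the 17 reached 1 TPM in both libraries, but not with the same genes. Serpinb2, at 0.862 and 1.54 TPM there, did not. Wfdc18 (1.98 and 3.59 TPM) and Wfdc3 (1.36 and 1.69 TPM) did, although Wfdc3 had 0 counts in both libraries by the first. The cause of the disagreement was not tested. Among the Wfdc genes Wfdc17 was the highest in both libraries, and it stood above Slpi in both.

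**Figure D5:**
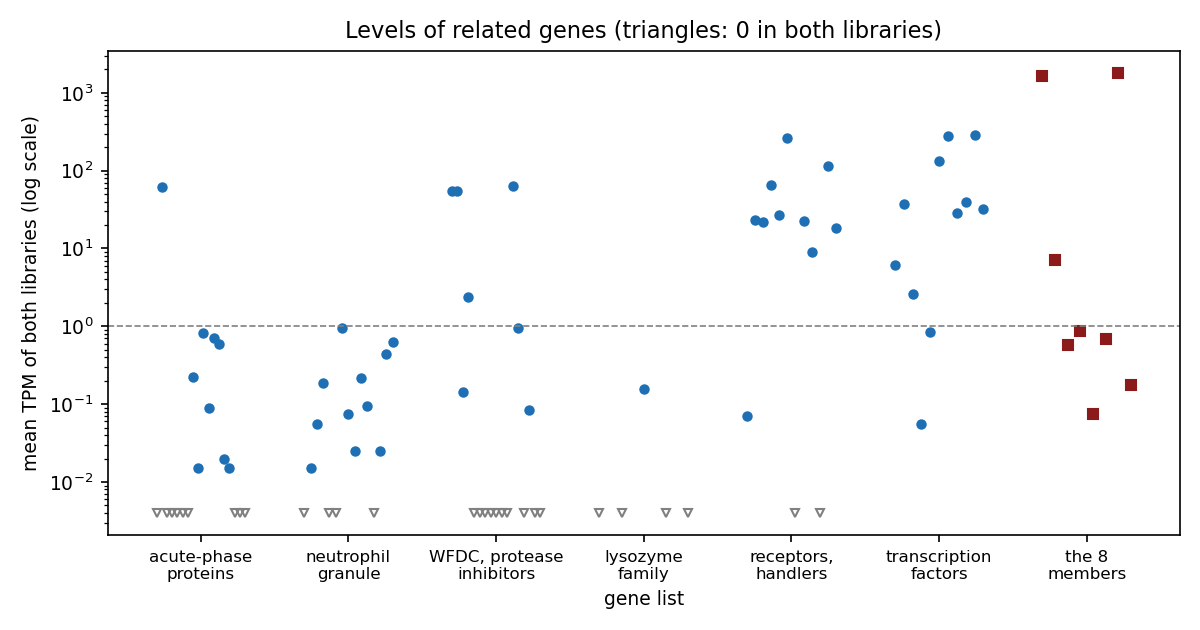
Mean TPM of both libraries (log scale) for each gene of 6 related lists (circles) and for the 8 members (squares), with genes at 0 in both libraries as open triangles at the bottom and a dashed line at 1 TPM. Acute-phase, granule and lysozyme-family genes have means below the line except Cp at 61.7 TPM, while 9 of 12 receptor genes and 9 of 11 transcription factor genes reached 1 TPM in both libraries.

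Of 12 genes for receptors and handlers of these proteins 9 reached 1 TPM in both libraries, beside 39.9% of all protein-coding genes, with a median of 27.3 and 15.3 TPM. Lrp1, a scavenger receptor that takes up lactoferrin among many ligands, had 305 and 226 TPM, Tlr2 135 and 93.2 TPM, Fpr2, a formyl peptide receptor that also binds serum amyloid A and cathelicidin, 81.1 and 48.1 TPM, and the haem oxygenase gene Hmox1 31.8 and 21.9 TPM. The lipocalin 2 receptor genes Slc22a17 and Lrp2 had no counts in either library. The 3 counts allowed by a 0 would be 0.0574 and 0.0643 TPM for Slc22a17. The second quantifier gave Slc22a17 0.0976 and 0.180 TPM and Lrp2 0.606 and 0.797 TPM. Cd163, the receptor for haptoglobin bound to haemoglobin, had 0.03 and 0.11 TPM and is named after its value was seen.

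Of 11 transcription factor genes linked to acute-phase and granule genes 9 reached 1 TPM in both libraries, beside 39.9% of all protein-coding genes. By the second quantifier 8 did so, Cebpd being at 0.897 and 1.19 TPM there. The median of the list was 45.6 and 18.4 TPM by the first quantifier. Nfkbiz, a nuclear cofactor of NF-kB, had 311 and 245 TPM, Nfkb1 138 and 132 TPM, and the myeloid factor Spi1 49.6 and 28.9 TPM. Cebpe, the factor of granulocyte maturation, had 0.07 and 0.04 TPM and is named after its value was seen.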

How the data were processed

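Genome and annotation were mm10 and GENCODE M21, per the file headers and readme. Which aligner, versions and strand setting were used is not given in the sources used here. For each library the authors deposited RSEM-format tables per gene and per transcript, with expected counts, TPM, posterior mean TPM and TPM interval bounds of unstated level, and a kallisto-format transcript table, summed per gene here. The deposited percentage of each transcript within its gene was recomputed from TPM and counts.

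Members and lists were chosen with earlier results of these data known. Neighbouring places in the order of levels were called separate where both libraries gave the same order and intervals that did not overlap. After rounding of the expected counts, TMM factors came from edgeR 4.0.16 under R 4.3.3. Ratios used a mean of at least 10 counts, a prior count of 0.5 and a limit of 2-fold, and this step was tested on simulated data. DESeq2 1.42.0 size factors were an alternative. Share intervals are 95% Wilson intervals; ratio intervals are exact binomial. Without molecular identifiers reads are not independent molecules, so both describe counting error alone, and a count of 0 allows 3 counts. Coordinates and symbols came from GENCODE M21, and promoter sequences from RefSeq for 7 of 8 members (Hp was not matched). A planned comparison of Lyz1 and Lyz2 proteins was replaced by their coding sequences, aligned with Biopython 1.88. Genes named are the 8 members, the 4 highest of each list with up to 3 at 0 counts, and the nearest protein-coding gene on each side, unless the text says that a gene was named after its value was seen. Saa1, Saa2, Spaca3, Retnlg, Wfdc3 and Wfdc18 lie outside this rule and were also named after their values were seen. The values of 1 gene that this rule names are not reported here. Genes of similar pattern were not sought, since 2 libraries give 1 ratio per gene.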

Additional observations from a re-analysis of the deposited data

How the results depend on the processing

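The number of members at 1 TPM or more in both libraries, 3, was 6 after rescaling TPM to nuclear protein-coding genes and 6 with a floor of 0.1 TPM, and it was 4 with the posterior mean, by which Ltf was at 3.04 in place of 0.175 TPM. It ranged from 3 to 4 when either replicate was left out. The number over 2-fold apart, 2, was 1 with rescaled TPM and 1 with a prior count of 2. Over all genes that number was 1208, and it was 2235 with TPM as deposited, 2636 with kallisto counts and 6354 with no filter on low counts, where more genes of few counts enter. The cause of the other shifts was not tested. Chosen after seeing the data, counts of list genes at 1 TPM by kallisto were also made. They gave 3 in place of 1 for the acute-phase list and 5 in place of 4 for the protease inhibitors. For the transcription factors they gave 8 in place of 9. In the alternatives run as ratios none of the 5 members compared changed sign, but by kallisto TPM Lyz2 was higher in replicate 2 (635 and 701 TPM). Depth limits Slpi, Camp, Ltf, Hp and Lyz1, each with 29 counts or fewer in either library.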

Other observations

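Cebpb, which encodes a C/EBP factor known from acute-phase genes, was at 60.7 TPM in replicate 1 and at 14.8 TPM in replicate 2, a log2 ratio of -1.59 after TMM, lower than the -1.01 of Saa3. Cebpb, Stat3, Cebpd, Gfi1, Cebpa and Rela were named after their values were seen. Stat3, a factor linked to acute-phase genes but not a C/EBP factor, had a ratio of -0.56. The ratio of Cebpd, at 3.18 and 2.01 TPM, was -0.21. Other factors of the same list lay above 0, Nfkb1 at 0.42, Gfi1 at 0.28, Nfkbiz at 0.11 and Cebpa at 0.07, and Spi1 was at -0.28 and Rela at -0.06. Over 2 libraries these ratios stand side by side and show no relation between the genes.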
